A study of Homo sapiens with 3 samples.

Results

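Of the chromatin regions that anti-FOXM1 ChIP-seq called in both libraries of Huh7 cells, those lying deep inside protein-coding genes are described here. A region qualified when a replicate 2 peak on chromosomes 1 to 22 or X overlapped a replicate 3 peak by at least 1 bp and its summit lay inside a protein-coding gene. The summit also had to be more than 5 kb from either end of every protein-coding gene and more than 1 kb from the ends of any other gene. Of 5716 shared replicate 2 peaks, 523 met this rule (9.15%), and they lay in 421 genes. The regions were thus chosen by their measured peak calls in both libraries and by position. They are called deep intragenic peaks below, and the 3973 shared peaks within 1 kb of a protein-coding gene end, called gene-end peaks, serve for comparison.

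Huh7 is an established human hepatocellular carcinoma line, and the cells were untreated. The immunoprecipitated group comprised 2 libraries precipitated with antibody G-5 against FOXM1, numbered replicates 2 and 3. The other group was 1 input library, whose peaks, if any were called, were not used. Replicate 2 had 8271 peaks and replicate 3 had 11502. The labels do not say whether the 2 libraries came from separate cultures, and no library with another antibody or from cells lacking FOXM1 was used here.

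FOXM1 belongs to the forkhead transcription factors and is known for activating genes of the G2 and M phases, partly through complexes held at promoters by other proteins. Many human genes have more than one promoter, so a transcript can start far inside the span of its gene. Such internal promoters are often CpG islands, stretches rich in C, G and the dinucleotide CpG, and they can give shorter proteins or other first exons.

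The following 300-base windows, from 250 bases before to 50 after a start (RefSeq, GRCh38.p14, gene strand, 5′ to 3′), lie at internal starts, and all but the last had a deep intragenic peak. Capitals mark every match, on either strand, to TGTTTAC (forkhead), TTTGAA (CHR, a cell cycle promoter element), TGACTCA (AP-1), CCAAT (NF-Y), GGGCGG (SP/KLF) or CGGAAGT (ETS), overlapping matches included. The first 6 had, 1 per gene, the highest lower fold of the libraries among starts with the replicate 2 summit in the window, CDC25B was added as a mitosis gene after its values were seen, and the last line is another start inside ACACA with no peak of either library within 1 kb.
DIDO1 start, chr20:62926456-62926755, strand -: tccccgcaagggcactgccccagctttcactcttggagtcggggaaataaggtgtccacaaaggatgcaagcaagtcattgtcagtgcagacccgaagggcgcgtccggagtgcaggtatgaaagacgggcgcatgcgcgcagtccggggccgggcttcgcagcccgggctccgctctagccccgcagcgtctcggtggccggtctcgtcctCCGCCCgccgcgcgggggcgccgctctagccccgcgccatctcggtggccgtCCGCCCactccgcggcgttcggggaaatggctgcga
RNF220 start, chr1:44631718-44632017, strand +: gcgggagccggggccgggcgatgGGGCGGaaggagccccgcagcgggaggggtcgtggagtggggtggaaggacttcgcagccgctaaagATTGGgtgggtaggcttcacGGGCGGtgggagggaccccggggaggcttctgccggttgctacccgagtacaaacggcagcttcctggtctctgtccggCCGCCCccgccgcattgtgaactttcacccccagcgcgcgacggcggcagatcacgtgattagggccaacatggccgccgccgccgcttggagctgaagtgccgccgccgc
ZMYND11 start, chr10:135015-135314, strand +: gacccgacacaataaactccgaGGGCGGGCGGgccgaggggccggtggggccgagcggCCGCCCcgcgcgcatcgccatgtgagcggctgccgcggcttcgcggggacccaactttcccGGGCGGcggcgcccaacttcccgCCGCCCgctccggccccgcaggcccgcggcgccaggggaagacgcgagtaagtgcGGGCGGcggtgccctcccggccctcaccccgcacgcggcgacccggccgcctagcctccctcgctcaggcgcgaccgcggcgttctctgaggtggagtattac
ZBTB45 start, chr19:58519553-58519852, strand -: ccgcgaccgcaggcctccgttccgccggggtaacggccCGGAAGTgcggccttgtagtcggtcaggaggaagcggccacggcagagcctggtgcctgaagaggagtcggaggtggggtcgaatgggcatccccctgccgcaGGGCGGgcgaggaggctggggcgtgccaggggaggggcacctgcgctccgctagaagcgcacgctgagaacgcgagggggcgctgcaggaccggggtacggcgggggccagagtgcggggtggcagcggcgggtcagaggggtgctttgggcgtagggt
CORO2B start, chr15:68578743-68579042, strand +: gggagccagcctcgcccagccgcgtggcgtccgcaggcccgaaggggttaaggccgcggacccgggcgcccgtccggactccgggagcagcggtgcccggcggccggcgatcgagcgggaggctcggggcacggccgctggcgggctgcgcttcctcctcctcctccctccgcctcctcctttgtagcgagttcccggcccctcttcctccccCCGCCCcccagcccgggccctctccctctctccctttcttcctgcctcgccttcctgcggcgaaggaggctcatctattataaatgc
ACACA start, chr17:37359047-37359346, strand -: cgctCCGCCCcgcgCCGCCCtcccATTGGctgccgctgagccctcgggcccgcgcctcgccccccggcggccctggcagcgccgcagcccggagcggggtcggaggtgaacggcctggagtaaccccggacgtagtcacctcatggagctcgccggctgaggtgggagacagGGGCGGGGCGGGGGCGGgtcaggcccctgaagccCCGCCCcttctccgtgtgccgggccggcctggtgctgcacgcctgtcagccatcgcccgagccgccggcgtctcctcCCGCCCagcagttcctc
CDC25B start, chr20:3796060-3796359, strand +: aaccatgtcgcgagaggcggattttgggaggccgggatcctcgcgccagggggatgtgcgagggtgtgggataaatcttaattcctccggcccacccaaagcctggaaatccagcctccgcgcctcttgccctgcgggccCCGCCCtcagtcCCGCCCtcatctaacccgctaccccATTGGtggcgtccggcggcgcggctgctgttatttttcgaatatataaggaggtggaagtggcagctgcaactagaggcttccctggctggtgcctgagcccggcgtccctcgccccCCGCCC
ACACA start, chr17:37299718-37300017, strand -: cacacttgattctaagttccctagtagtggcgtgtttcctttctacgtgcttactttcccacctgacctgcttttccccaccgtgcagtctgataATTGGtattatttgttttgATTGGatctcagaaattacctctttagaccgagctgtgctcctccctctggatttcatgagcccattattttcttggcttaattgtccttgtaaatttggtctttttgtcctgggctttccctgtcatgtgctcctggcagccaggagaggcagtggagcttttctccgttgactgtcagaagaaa
The 7 windows at peaks had a GC content of 64.3% to 77.3% and held 24 to 48 CpG dinucleotides each. The ACACA window without a peak had a GC content of 45.3% and 5 CpG dinucleotides. None of the 8 windows held the forkhead, CHR or AP-1 letters, which says nothing about the factors themselves.

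Many of the deep intragenic peaks lay near annotated internal transcript starts. Whether those starts are in use in Huh7 cells was not tested. The peaks were compared with a table of RefSeq transcript starts, several for some genes. Starts on chromosome 8, which held 27 of the 523 peaks, were not used here. Of the other 496 peaks, 259 had their summit within 1 kb of a listed start (52.2%, exact Clopper-Pearson 95% interval 47.7 to 56.7), and 258 of these starts belonged to the gene around the peak. The position rule nearly fixes this last count, since it keeps summits away from the ends of other genes. Outside chromosome 8, the stretches in which the position rule can be met held such a start within 1 kb over 0.558% of their length. Peaks therefore numbered 46.2 per Mb in those stretches and 0.238 per Mb elsewhere in qualifying gene interior.

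The strongest peak by the lower fold of the libraries lay at an internal start of PRRC2B, which encodes an RNA-binding protein of translation. Fold enrichment, the authors' linear ratio of the summit signal to the local background, was 6.53 in replicate 2 and 5.67 in replicate 3, and −log10 q, where q is the adjusted p of the peak call, was 13.6 and 11.2. The summit lay 97 bp downstream of the start and 20532 bp from the nearest end of the gene (chromosome 9, 131393729 to 131394302). By fold and p these values correspond to 42 and 38 fragments at the summit.

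DIDO1, a chromatin-binding PHD finger gene, had fold 5.53 in replicate 2 and 5.24 in replicate 3 (chromosome 20, 62926146 to 62926621). Its summit lay 10 bp upstream of the start printed above, and the libraries' summits were 28 bp apart. RNF220, an E3 ubiquitin ligase gene, had fold 5.17 and 5.73, with the summit 39 bp downstream of a start that lies 92.0% of the way along the gene. CORO2B, which encodes an actin-binding coronin, had fold 5.04 and 5.70, 225 bp upstream of its start.

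ZMYND11, a chromatin reader gene, had fold 5.13 in replicate 2 and 6.31 in replicate 3 at its stronger peak, 131 bp upstream of a start. Its second peak, with fold 5.17 and 5.03, lay 82 bp downstream of another start. ZBTB45, a zinc finger gene of the BTB family, had fold 5.28 and 5.07, 42 bp upstream of its start. The upper quartile of fold over all deep intragenic peaks was 4.47 in replicate 2 and 4.53 in replicate 3. These peaks lay above it in both libraries, which follows from their choice by high fold.

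**Figure D1:**
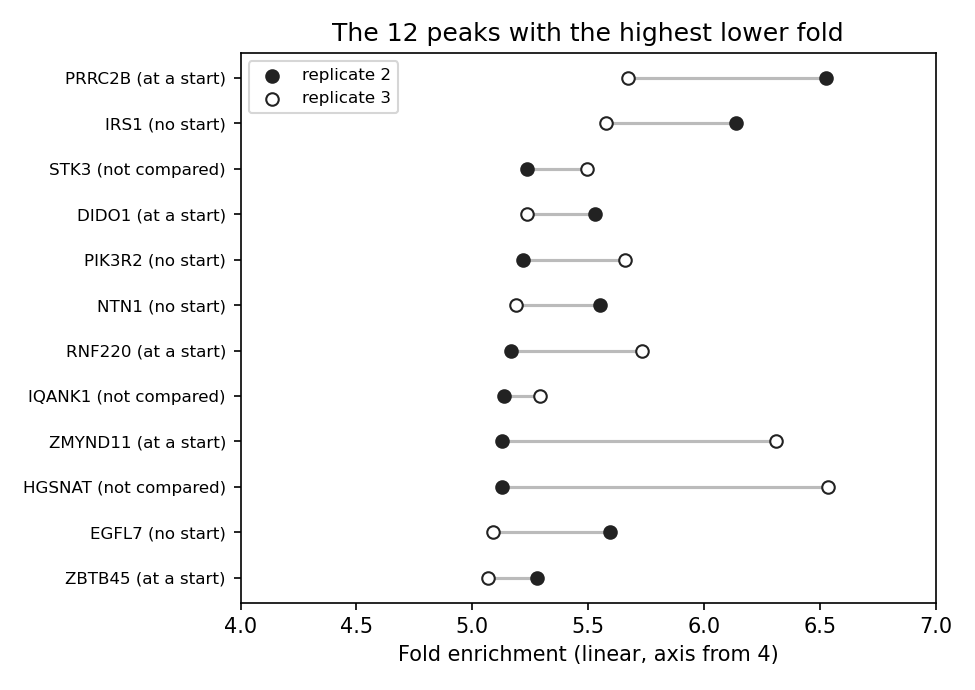
Fold enrichment (linear, horizontal axis from 4) of the 12 deep intragenic peaks with the highest lower fold, with filled circles for replicate 2 and open circles for replicate 3. PRRC2B leads with 6.53 and 5.67, and peaks at internal starts stand among peaks with no listed start; chromosome 8 genes were not compared with starts.

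Regulators of lipid and glucose metabolism carried peaks at internal starts. ACACA encodes acetyl-CoA carboxylase, the rate-limiting enzyme of fatty acid synthesis, and had fold 5.14 in replicate 2 and 4.95 in replicate 3, 120 bp from a start. MLXIPL, which encodes the glucose-responsive factor ChREBP, had 5.17 and 4.52, 138 bp from a start. LPIN1, a phosphatidate phosphatase gene, had 3.98 and 5.17, 62 bp from a start. These were the 3 of 36 lipid and glucose metabolism regulators with a deep intragenic peak (8.33%), against 2.11% of all protein-coding genes and, since longer genes have more room, 2.94% of those over 10 kb. Counting only deep intragenic peaks whose summits in the libraries lay within 100 bp, ACACA alone remained, 1 of 36 (2.78%), against 1.28% of all protein-coding genes.

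CDC25B, a phosphatase that activates CDK1 at entry into mitosis, was the single member of the 51 listed G2/M and mitosis genes with a deep intragenic peak (1.96%). This share was close to the 2.11% of all protein-coding genes. Over 10 kb it was 1 of 43 listed genes (2.33%), against 2.94% of all such genes. The fold at CDC25B was 4.21 in replicate 2 and 3.83 in replicate 3, with −log10 q of 9.59 and 7.41 on 50 and 43 fragments. The summit lay 56 bp upstream of an internal start at position 3796310 of chromosome 20. CDC25B had a shared peak at its first listed start as well. FOXM1 itself held no deep intragenic peak.

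Further peaks at internal starts, chosen after their values were seen, lay in genes of membrane, chromatin, blood lineage and glycan biology. FNBP1, an F-BAR membrane protein gene, had fold 4.98 in replicate 2 and 6.16 in replicate 3, 313 bp downstream of a start. KDM2B, which encodes a histone demethylase that binds CpG islands, had 2 peaks beside a start, with folds of 4.53 and 4.95 in replicate 2 and 5.41 and 4.97 in replicate 3. RUNX1, a blood lineage factor gene, had fold 4.16 and 5.06, 75 bp upstream of a start, and this summit was 100973 bp from the nearest gene end. MGAT1, an N-glycan branching enzyme gene, had 4.26 and 4.61 with its summit 3 bp upstream of a start.

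Summits clustered around internal starts as they did around the starts at gene ends. The median distance was 149 bp (quartiles 74.5 and 325) for the 259 deep intragenic peaks near a start. Of these, 155 had the summit downstream of the start (59.8%, exact 95% interval 53.6 to 65.9). Of the 3092 gene-end peaks near a start, 1938 did (62.7%, exact 95% interval 60.9 to 64.4). The fullest 100-bp bin was that from 100 to 200 bp downstream for deep intragenic peaks (17.8%) and that from 0 to 100 bp downstream for gene-end peaks (18.1%).

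**Figure D2:**
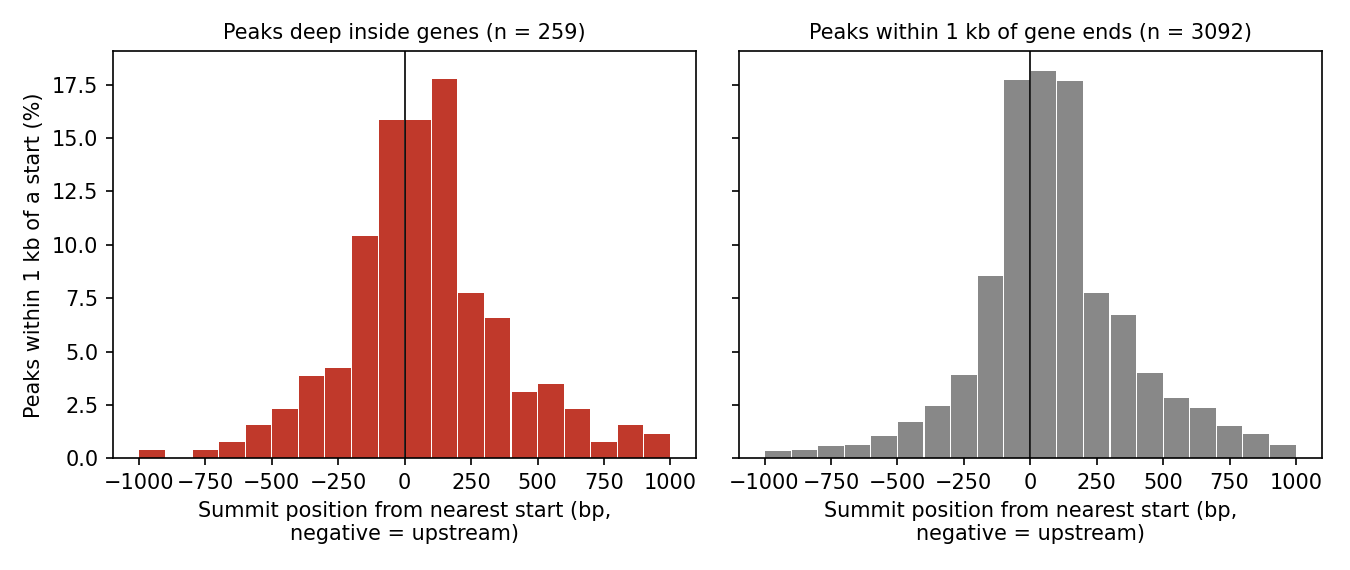
Position of replicate 2 summits relative to the nearest listed start (bp, negative upstream), as the percentage of peaks within 1 kb of a start in 100-bp bins, for deep intragenic peaks (left, 259) and gene-end peaks (right, 3092). In both, the 3 fullest bins run from 100 bp upstream to 200 bp downstream of the start, and more summits lie downstream than upstream.

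Only some internal starts carried a peak, and most of these were CpG-rich. Of 2987 starts of protein-coding genes that lie where the position rule can be met, 287 had a deep intragenic peak within 1 kb (9.61%). They belonged to 209 of the 1911 genes with such starts (10.9%). A shared peak lay within 1 kb of 20.3% of 17137 starts near gene ends. The GC content of the 300-base window had a median of 73.0% (quartiles 66.2 and 77.3) at the 287 starts with a peak and 51.3% (quartiles 42.7 and 61.3) at the 2698 with no shared peak. The ratio of observed to expected CpG had a median of 0.870 with a peak and 0.326 without.

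Among CpG-rich starts the shares inside genes and at gene ends lay close together, while among the other starts the share was lower inside genes. A window was called CpG-rich where GC content was at least 50% and the CpG ratio at least 0.6, a split made after seeing the data. Of the CpG-rich starts deep inside genes, 253 of 865 had a peak (29.2%), against 3238 of 11413 at gene ends (28.4%). Of the other starts, 34 of 2122 deep inside genes had one (1.6%), against 249 of 5724 at gene ends (4.35%). Neighbouring starts of a gene share sequence and often share a peak, so starts are not independent, and no test was made over them.

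**Figure D3:**
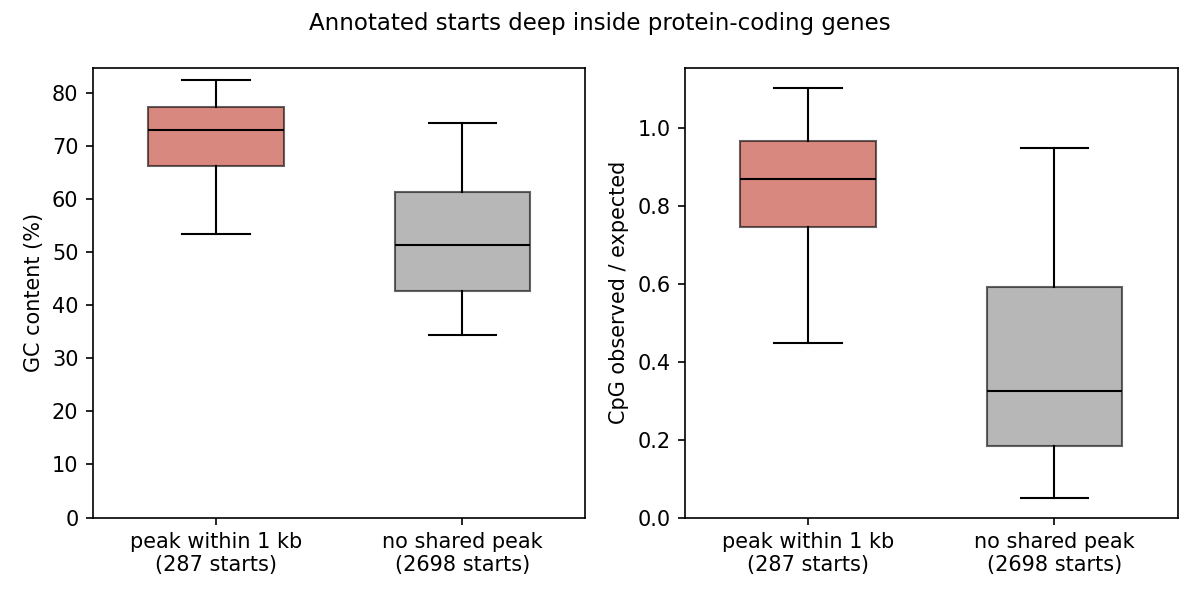
GC content (%) and observed over expected CpG of the 300-base windows at starts deep inside protein-coding genes, for 287 starts with a peak within 1 kb (left) and 2698 with no shared peak (right). Boxes span the quartiles, the line is the median and whiskers reach the 5th and 95th percentiles; the medians are 73.0% against 51.3% and 0.870 against 0.326.

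The contrast held within genes that have both kinds of internal start. There were 62 such genes, and in 61 of them the mean GC content was higher at the starts with a peak, with medians over genes of 75.3% with a peak and 55.3% without. In ZMYND11 it was 80.3% at 4 starts with a peak and 32.3% at 1 without, and in FNBP1 76.3% and 40.3%. The exception was TGIF1, a homeobox repressor gene, with 65.7% and 69.3%. The CpG ratio was likewise higher with a peak in 61 of the 62 genes, all but IQSEC1, where it was 0.962 and 1.00.

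Motif letters were counted in all windows and again in CpG-rich windows alone. GGGCGG, the SP/KLF letters, stood in 80.8% of windows with a peak and 28.5% of those with no shared peak, against 45.0% of all promoters in the table. Among CpG-rich windows alone the shares were 87.4% with a peak and 75.1% without. TTTGAA stood in 4.53% with a peak, 19.1% without and 15.2% of all promoters, and among CpG-rich windows in 3.16% with a peak and 6.07% without.

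The forkhead letters TGTTTAC were rare at these starts. They stood in 10 of 287 windows with a peak (3.48%), in 4.37% of those without and in 3.42% of all promoters. Among CpG-rich windows the order turned, with 3.16% with a peak and 2.30% without, on 8 and 14 windows. CCAAT stood in 31.4%, 33.4% and 34.6% of the same sets, TGACTCA in 1.74%, 7.15% and 4.92%, and CGGAAGT in 4.88%, 2.78% and 6.82%. Among CpG-rich windows CCAAT stood in 32.0% with a peak and 29.8% without, TGACTCA in 1.98% and 2.13%, and CGGAAGT in 5.14% and 6.72%. The order with and without a peak thus turned for CCAAT and CGGAAGT as well. Such matches are a description of letters and not of binding.

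Most genes with a peak at an internal start had none at their first start, as did most genes whose internal starts had no peak. Of 124 genes with a deep intragenic peak at their own internal start and a listed first start, 33 also had a shared peak within 1 kb of that first start (26.6%, exact 95% interval 19.1 to 35.3). They included ACACA, FNBP1, CDC25B, PTCH1 and DNMT3A, a DNA methyltransferase gene. Of 1114 genes with an internal start and no peak there, 255 had one at the first start (22.9%, exact 95% interval 20.5 to 25.5). The intervals overlap.

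The other 237 deep intragenic peaks had no listed start within 1 kb. The table holds no start for the genes around 56 of them, so a start near these may be missing from the table. Of peaks in genes that the table does list, 257 of 438 lay at a start (58.7%). Peaks away from starts had a median distance of 17913 bp to the nearest one (quartiles 7353 and 50067), and their median position was 48.9% of the way along the gene.

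Among the 12 peaks of highest lower fold, 4 had no listed start within 1 kb. IRS1, the adaptor of the insulin receptor, had fold 6.14 in replicate 2 and 5.58 in replicate 3, on 35 and 29 fragments, and its summit lay 7960 bp downstream of the gene's start (chromosome 2, 226791540 to 226791927). PIK3R2, a regulatory subunit gene of phosphoinositide 3-kinase, had 5.22 and 5.66, 8269 bp from its start. NTN1, the netrin-1 guidance cue gene, had 5.55 and 5.19, and EGFL7, a secreted vascular factor gene, had 5.59 and 5.09. No start is listed for NTN1.

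On chromosome 8, where starts were not compared, STK3 had fold 5.24 in replicate 2 and 5.49 in replicate 3. It encodes MST2, a kinase of the Hippo pathway. HGSNAT, a lysosomal acetyltransferase gene, had 5.13 and 6.54, and IQANK1 had 5.14 and 5.29. The gap between libraries at HGSNAT rested on 23 and 28 fragments.

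By −log10 q a different set led, at places of higher fragment count. ZNF787, a zinc finger gene, reached −log10 q of 14.5 (replicate 2) and 16.9 (replicate 3), on 58 and 49 fragments. PLCH2, a phospholipase C gene, had 12.7 and 15.02, and NXN, the nucleoredoxin gene, had 11.2 and 21.7. The fold of NXN was 4.51 and 6.01, on 52 and 68 fragments.

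None of these 3 peaks had a listed start within 1 kb. Their libraries' summits lay 37 bp apart at ZNF787, 5 bp at PLCH2 and 1 bp at NXN. PRRC2B, described above, was also among the 5 highest by this measure.

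**Figure D4:**
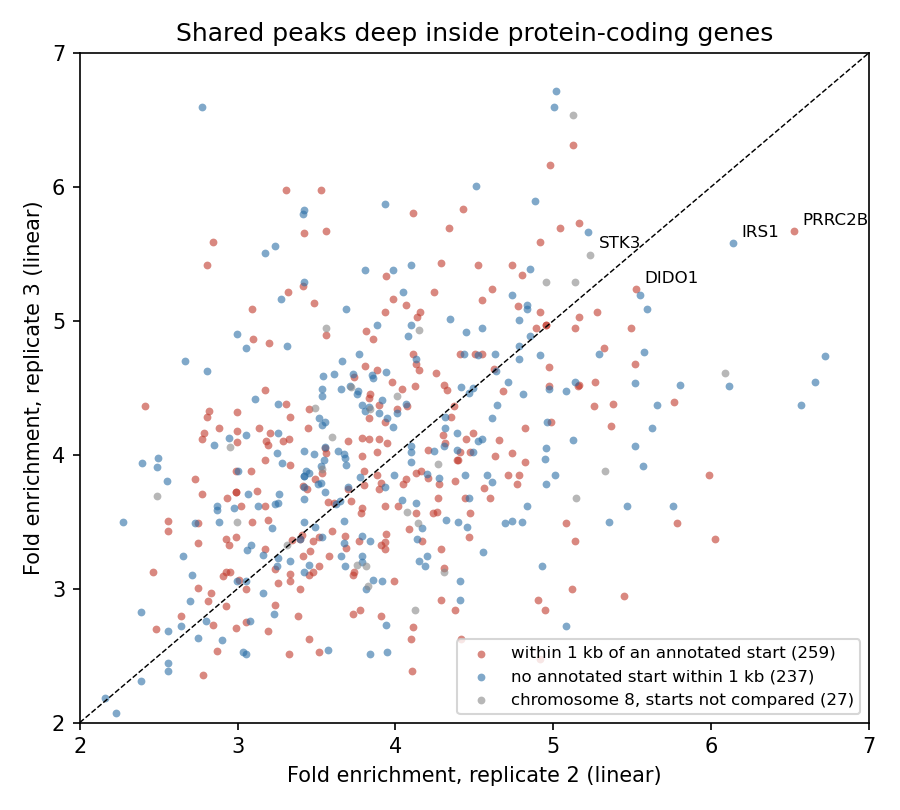
Fold enrichment (linear) in replicate 2 (horizontal) and replicate 3 (vertical) of each of the 523 deep intragenic peaks, coloured by whether a listed start lay within 1 kb (259), did not (237) or was not compared (27); the dashed line marks equal fold. Peaks at starts and away from them overlap throughout, and 278 of the 523 lie above the line.

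The strength of deep intragenic peaks lay close to that of gene-end peaks. Median fold was 3.86 in replicate 2 and 3.96 in replicate 3 for deep intragenic peaks, and 3.84 and 3.99 for gene-end peaks. The differences, 0.019 and -0.026, had opposite signs in the libraries. Fold and q come from the same calls that chose the peaks, and peaks are not replicates, so these values are a description and no test was made.

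The fragments over the summit were also close in number. Their median was 27 in replicate 2 and 26 in replicate 3 for deep intragenic peaks, and 27 in both for gene-end peaks. The median peak width in replicate 2 was 252 bp deep inside genes and 266 bp at gene ends, and in replicate 3 it was 302 and 340 bp. The libraries' summits were a median of 90 bp apart deep inside genes and 101 bp apart at gene ends.

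Within the deep intragenic peaks, those at starts were wider. Median width in replicate 2 was 290 bp at starts and 228 bp away from them, and in replicate 3 it was 348 and 279 bp. Median fold was 3.88 and 3.81 in replicate 2, and 3.93 and 4.002 in replicate 3, in the same order. Of the peaks at starts, 62 of 259 had −log10 q of at least 5 in both libraries (23.9%), against 40 of 237 away from starts (16.9%).

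Peaks deep inside genes were also found in replicate 2 alone. Of 838 replicate 2 peaks at such positions, 523 overlapped a replicate 3 peak (62.4%), against 69.5% of all replicate 2 peaks. Of the unshared ones with starts to compare, 102 of 299 lay within 1 kb of a start (34.1%, exact 95% interval 28.8 to 39.8), against 52.2% of the shared. A peak missing from a list says only that the authors' threshold was not passed.

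The genes that held these peaks were long, which the rule favours. Their median length was 85392 bp, against 42122.5 bp over protein-coding genes longer than 10 kb, and the median summit lay 17104 bp from the nearest gene end. Of the 421 genes 93 held more than 1 peak and 18 held 3 or more. Some of these are neighbouring calls, since 50 peaks shared their replicate 3 partner with another. In addition, 16 peaks lay inside more than 1 protein-coding gene, and each was counted for every such gene.

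GSE1, which encodes a partner of a histone demethylase complex, held the most with 5 peaks spread over the gene. Their folds ran from 2.85 to 5.35 in replicate 2 and from 3.50 to 5.24 in replicate 3, and 1 of the 5 lay at a start. IQSEC1, an ARF exchange factor gene, held 4, of which 1 lay at a start. SMARCD3, a subunit gene of the BAF chromatin remodeller, held 4 with 3 at a start, in folds of 3.17 to 5.08 in replicate 2 and 3.49 to 4.22 in replicate 3.

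PTCH1, the Hedgehog receptor gene, held 4 peaks with 3 at starts. Their folds were 3.94 to 4.77 in replicate 2 and 2.73 to 3.78 in replicate 3, so replicate 2 was higher at each. The 4 peaks had only 3 replicate 3 partners, so these are not 4 separate comparisons. NOL4L held 4 peaks, 2 of them at starts, and its strongest had fold 3.94 and 5.34. SRPK2, an SR protein kinase gene, had 4 replicate 2 peaks under a single replicate 3 peak of fold 4.75, and these count as 1 region in that library. CDKN2C, an inhibitor gene of CDK4 and CDK6, held 3 peaks within 1 kb of 1 start, with folds of 3.77 to 4.13 and 3.35 to 3.86.

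Few genes of the listed pathways held a deep intragenic peak. Chromatin and corepressor genes had 4 of 38 (10.5%): PRDM16, a histone methyltransferase gene (4.63 and 4.75), ARID1B, a BAF subunit gene (6.57 and 4.37), EHMT1 and NCOA2. The Wnt list had APC2 alone, a relative of the tumour suppressor APC (3.42 and 5.29), 1 of 40 (2.5%). That list is not complete: WNT3 and WNT9B, named here in addition and not among its genes with a peak, held 2 deep intragenic peaks and 1. Of all protein-coding genes 2.11% held one, and of those over 10 kb 2.94%.

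Of the hepatocyte lists, to be read against 2.11% of all protein-coding genes, the transcription factors had a higher share on 1 gene and the products had none. Of 26 hepatocyte transcription factor genes only NR2F2 held a peak (3.85%), with fold 3.72 and 4.51 at one peak and 5.45 and 2.95 at another, 326 bp from a start. None of 43 hepatocyte product genes did, and 28 of these exceed 10 kb. Of 28 blood and immune markers, CD8A (3.94 and 4.24, 15 bp from a start) and PAX5 (3.53 and 3.92) held one (7.14%), and of 27 neuronal markers, of median length 230212 bp, none did. Counting only peaks whose summits in the libraries lay within 100 bp, none of the 28 blood and immune markers held one (0%), against 1.28% of all protein-coding genes. With counts this small no list is set apart from the others.

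Chromosomes differed in how densely their gene interiors held peaks. Per Mb of sequence where the position rule can be met, chromosome 19 had 1.98 peaks, chromosome 9 had 1.19 and chromosome 22 had 1.09, against 0.496 over all chromosomes, while chromosome 14 had 0.159 and X had 0.116. As a share of all shared peaks on a chromosome, chromosome 9 had 14.6% (52 of 357), against 9.15% over all, and chromosome 14 had 4% (5 of 125). Chromosome 19 had 8.75% by that measure, under the share over all chromosomes, and X had 11.9% (5 of 42), above it. The median rebuilt background on chromosome 9 was 5.42 fragments in replicate 2, against 5.00 over all. On the other chromosomes named here it was 4.66 (19), 5.68 (22), 8.00 (14) and 4.54 (X), so it did not follow the density of peaks.

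**Figure D5:**
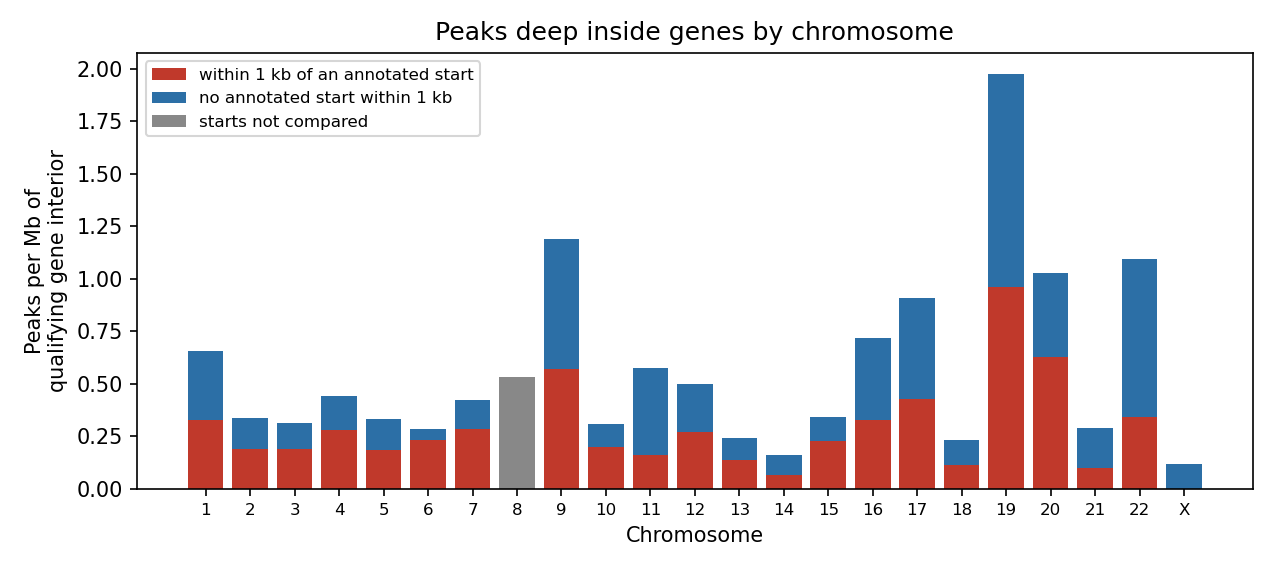
Deep intragenic peaks per Mb of gene interior where the position rule can be met, by chromosome, split into peaks within 1 kb of a listed start and the rest; on chromosome 8 starts were not compared. Chromosome 19 is highest at 1.98 per Mb and X lowest at 0.116, though on X they were 5 of 42 shared peaks (11.9%).

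At the limits of the rule, the nearest peaks on either side had like values. Just inside 5 kb of a protein-coding gene end lay peaks in ZMYND11 and FAM110A, both at 5046 bp, with folds of 5.13 and 3.78 in replicate 2 and 6.31 and 3.57 in replicate 3. Just outside lay those in SNX12 at 4981 bp (3.93 and 4.37) and CPT1A at 4887 bp (2.95 and 2.87). Near the 1 kb limit to other genes, RASSF3 at 1007 bp (3.83 and 4.28) was inside and GNB4 at 996 bp (2.94 and 3.99) was outside. Peaks in genes with near-identical copies, such as POM121, may hold reads from the copy, since the handling of such reads is not given in the sources used here.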

How the data were processed

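Peak lists of 2 anti-FOXM1 ChIP libraries of untreated Huh7 cells were used. The tools named, per the submitters' processing notes, are BWA, MACS2 2.2.7.1 and CASAVA 1.4, and the build is GRCh38. Their roles, filters and the handling of duplicates are not given in the sources used here. The authors' lists held, per library, a fold enrichment at each summit (a linear ratio) and deposited −log10 p and −log10 q values, with a deposited score that is 10 times −log10 q without its decimals, and a deposited summit offset, the other unit, in bp. The lists reached down to a −log10 q of 1.32 (replicate 2) and 1.31 (replicate 3).

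Peaks were placed on a RefSeq gene table (GRCh38.p14, 59098 records, 19974 of them protein-coding) and compared with 34961 transcript starts of 27195 genes, 15812 of them protein-coding. Each peak took as partner the overlapping replicate 3 peak of highest fold. Peaks on other sequences, 41 in replicate 2 and 45 in replicate 3, were left out. Fragment counts were rebuilt from fold and p, assuming a Poisson tail and a scale of 0.848 and 0.869 between ChIP and control. For all peaks the rebuilt −log10 p came within 0.001 of the value given. They had a median of 26 fragments in replicate 2 and 24 in replicate 3, and total read counts were not used. Intervals are exact Clopper-Pearson 95% and cover counting error only.

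No test was made, since 2 libraries of 1 group allow none over samples and peaks are not replicates. The members, the gene lists and the comparisons were chosen with earlier results of these data known. Named peaks were the 12 of highest lower fold, the 5 of highest lower −log10 q, the 6 genes with the most peaks, up to 3 genes per list, and up to 5 at starts, unless said otherwise; EHMT1 and NCOA2, in a list with 4, are both named. Some items that this rule names are not reported here. The genome sequence was not used, so exons and motifs under the summits were not analysed here. Scripts were tested on simulated data. Computations used Python 3.11.15, numpy 2.4.6, pandas 2.3.3, SciPy 1.17.1 and matplotlib 3.10.9.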

Additional observations from a re-analysis of the deposited data

How the results depend on the processing

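The number of deep intragenic peaks depended on what counts as shared. It was 338 with reciprocal overlap of at least 50%, 283 with summits within 100 bp and 109 where −log10 q reached 5 in both libraries; with a library left out it ran from 838 to 1233. The genes that hold one numbered 261 with summits within 100 bp and 104 with −log10 q of at least 5, and 638 to 878 with a library left out. Deep intragenic peaks made up 10.1% of shared peaks with reciprocal overlap and 10.97% with no condition on other genes. They made up 12.7% at more than 2 kb from gene ends and 6.58% at more than 10 kb. With a library left out no peak is shared, and 10.2% to 10.8% of all peaks of the other library met the position rule. The share within 1 kb of a start was 60.8% with −log10 q of at least 5, 57.6% with no condition on other genes, 39.0% to 45.4% with a library left out, and 45.8%, 37.5% and 16.5% with starts within 500, 300 and 100 bp. The settings for this share other than −log10 q, 10 kb and 100 bp between summits were chosen after seeing the data. The difference in median fold from gene-end peaks was 0.075 in replicate 2 and 0.062 in replicate 3 with −log10 q of at least 5, and 0.036 in replicate 3 with summits within 100 bp, where the median summit distance was 38 bp. Counting only peaks with summits within 100 bp, the blood and immune markers lay 1.28 percentage points under all protein-coding genes, against 5.04 points above them with all deep intragenic peaks. The cause of these shifts was not tested. Planned motif counts around summits were not run, since no genome sequence was used. No paired analysis was possible because the results come from no test. The medians of 27 and 26 fragments per summit are those of called peaks. How far sequencing depth limited the detection of weak peaks was not tested.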
